A study of Mus musculus with 15 samples.

Results

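The hypoxia response and glycolysis genes were examined in mouse renal tumors with and without Pbrm1. The set holds 39 genes, chosen by symbol: the subunits of the hypoxia-inducible factors (HIF), their oxygen sensors, established HIF targets, glucose and lactate transporters, and the enzymes that carry glucose to lactate. All 39 were found among the 18279 genes of the expression table, and all 39 entered the tests, which covered the 18250 genes not at 0 in every tumor.

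HIF is a pair of proteins, an oxygen-regulated alpha subunit (HIF-1α from Hif1a or HIF-2α from Epas1) and a stable partner (ARNT, from Arnt). In oxygenated cells the prolyl hydroxylases mark the alpha subunit for destruction through the VHL ubiquitin ligase, and an asparaginyl hydroxylase blunts its activity. When oxygen falls, HIF escapes both, binds DNA at hypoxia response elements and raises genes for glucose uptake, glycolysis, lactate export and pH control. The pathway is central to renal cell carcinoma, where loss of VHL is frequent and leaves HIF active in the presence of oxygen. HIF alpha is controlled mostly as a protein, so the level of its transcript does not give its activity.

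RNA was sequenced from 15 subcutaneous tumors, 5 in each of 3 groups. Renca is a kidney cancer cell line from a BALB/c mouse in which, per the study, no Vhl mutation is known. Pbrm1 encodes a subunit of the PBAF chromatin remodeling complex. The control tumors (tumors 1 to 5) came from cells that the sample labels call parental, while the series text calls them a control knockout. Tumors 6 to 10 came from Pbrm1 KO #4 cells (clone 4) and tumors 11 to 15 from Pbrm1 KO #18 cells (clone 18). Per the study's methods, each knockout line was 1 sorted clone made with transiently expressed Cas9 plasmids and a repair plasmid that carries puromycin resistance and a red fluorescent protein. All hosts were female BALB/c mice, bought at 4 to 6 weeks of age, and the cells were placed under the skin of the back in Matrigel diluted with PBS. Mice of the experiment had PD-1 antibody or no treatment, and the labels do not say which of them gave these tumors. Tumors were collected by size, ulceration or distress, so their age may differ.

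Values are normalized counts, reads per gene divided by a size factor for each tumor. The tumors held between 32924414 and 49099168 reads on genes. Pbrm1 itself lay at 7451.5 to 9871 normalized counts in the control tumors and at 2484 to 3137.5 in the knockout tumors (log2 difference -1.69 ± 0.07 SE, limma adjusted p = 2.94e-11). Control and knockout tumors thus separated as labelled, and part of the transcript was still read. Pbrm1 did not tell the clones apart (clone 18 minus clone 4 0.05, limma adjusted p = 0.818), so it is no check of the clone labels. The summed markers of renal epithelium lay between 98097 and 138188 normalized counts over the 15 tumors, with none of the 9 genes at 0 in a whole group. Each clone is 1 line, so loss of Pbrm1 and other differences of a clone from the control cells cannot be told apart. The spread between tumors of a group is that of 1 cell line in several mice.

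Of the 39 members, 2 were higher in the 10 knockout tumors than in control, Ankrd37 and P4ha1, and 3 were lower, Ndrg1, Pfkfb4 and Ldhb. That is 5.13% of the members higher, against 9.23% of all genes tested, and 7.69% lower, against 12.9% of all genes, so the counts are no result about the members as a set. The test was limma on log2(normalized count + 1) with Benjamini-Hochberg adjustment over all genes and a threshold of 0.05. Differences are on that scale and understate the change of low genes. The median log2 difference of the members was 0.06 against -0.02 for all genes, and 31 of the 39 members lay within 0.3 of 0. Slc2a1, Ldha, Gapdh, Pgk1 and Car9, which are commonly read as signs of hypoxia or of glycolysis, did not pass the test.

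**Figure D1:**
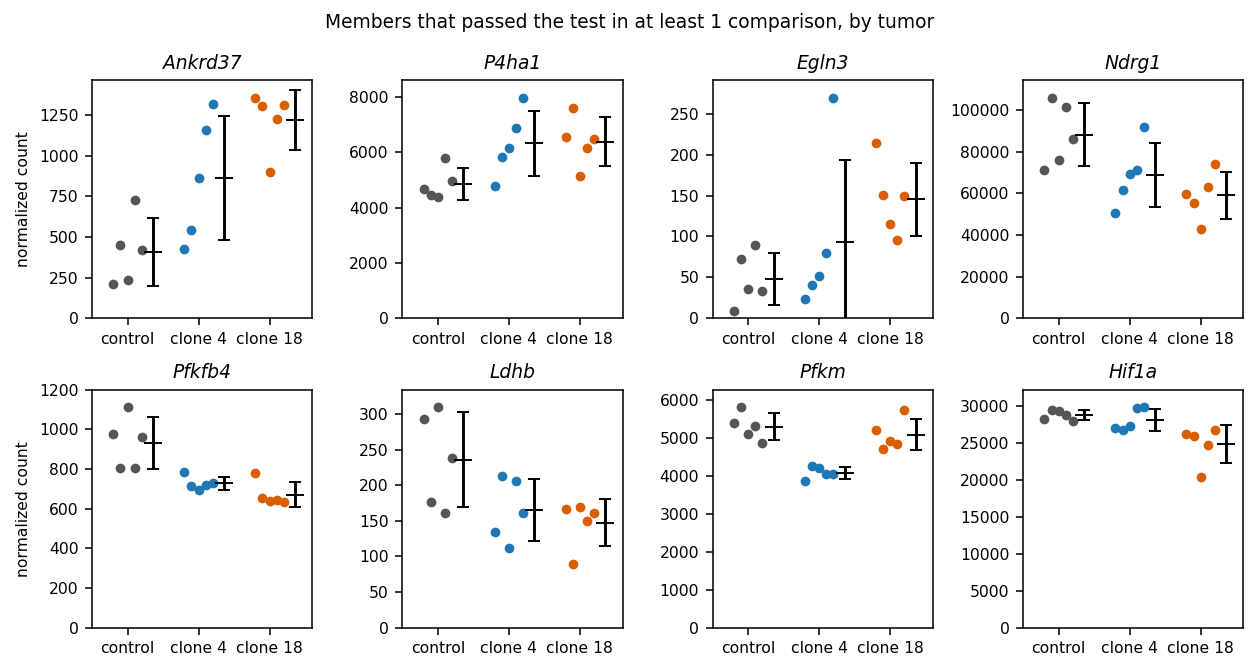
Normalized count (y axis, from 0) of the 8 members that passed the test in at least 1 comparison, in the control, clone 4 and clone 18 tumors (x axis). Each point is 1 tumor, and the black mark is the mean with SD (n = 5); the lower SD bar of Egln3 in clone 4 runs past 0. The 5 clone 18 tumors lie above the 5 control tumors for Ankrd37 and Egln3, and all 10 knockout tumors lie below the 5 control tumors for Pfkfb4.

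Hif1a, which encodes HIF-1α, was the main alpha subunit transcript in every tumor. Its normalized counts were 28142.5, 29472, 29329, 28785 and 27964 in the control tumors. In clone 4 they were 26944, 26744, 27208, 29700 and 29787, and in clone 18 they were 26241, 25848, 20374, 24737 and 26657. All 5 clone 18 tumors were below all 5 control tumors, while clone 4 straddled the control range. The log2 difference from control was -0.22 ± 0.07 SE in clone 18 (adjusted p = 0.0365) and -0.04 ± 0.07 in clone 4 (adjusted p = 0.808). With both clones together it was -0.13 ± 0.07 (adjusted p = 0.242). The call in clone 18 was lost in 7 of 15 fits that left out 1 tumor, those without any one of the 5 control tumors or without tumor 13 or 14 (adjusted p up to 0.0738), and with quantile or median scaling and in edgeR (adjusted p up to 0.139).

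Epas1, which encodes HIF-2α, was at 753, 595, 890.2, 456 and 543.5 normalized counts in the control tumors. It was at 633, 949, 569, 511 and 1776 in clone 4 and at 445, 504.5, 696, 689 and 531 in clone 18. The groups overlapped, and tumor 10 of clone 4 stood highest. The log2 difference between knockout and control was 0.09, with a 95% interval from -0.45 to 0.62, and its sign was negative in clone 18 alone (-0.16). Epas1 is strongly transcribed in endothelium, and tumor 10 also had the highest sum of endothelial markers, 17882.5 normalized counts against 8557 to 16932 in the other tumors. The part of endothelium in this value was not tested, and in bulk tissue fewer cells of a type and less RNA per cell cannot be told apart. Arnt was at 2854 ± 437 (SD, n = 5) in control, 2539 ± 204 in clone 4 and 2437 ± 131 in clone 18. Its log2 difference of -0.19 ± 0.08 SE did not pass (adjusted p = 0.0944).

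Among the oxygen sensors, Egln3 had the largest difference. Egln3 encodes prolyl hydroxylase PHD3, which is itself an HIF target. It is described tumor by tumor, as are P4ha1, Ndrg1, Pfkfb4 and Pfkm below, a choice made after the values were seen. Its normalized counts were 9.30, 72.2, 36.2, 89.6 and 32.8 in control, 23.1, 40.1, 51.7, 79.6 and 269.6 in clone 4 and 214, 151, 115, 96.2 and 150.0 in clone 18. All clone 18 tumors exceeded all control tumors, and clone 4 stayed within the control range except for tumor 10. The log2 difference from control was 1.87 ± 0.58 SE in clone 18 (adjusted p = 0.0267) and 0.75 ± 0.58 in clone 4 (adjusted p = 0.445). The difference between the clones, 1.12 with a 95% interval from -0.11 to 2.35, did not pass (adjusted p = 0.322). The clone 18 call was lost without tumor 1, 5, 11 or 12 (adjusted p up to 0.0764), in edgeR on recovered reads and without the tumors with muscle transcripts described below (adjusted p up to 0.103).

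The other sensors moved less. Egln1 encodes PHD2, the main prolyl hydroxylase for HIF-1α, and was at 7448 ± 1693 normalized counts in control, 8798 ± 2914 in clone 4 and 9133 ± 983 in clone 18 (SD, n = 5). Its log2 difference between knockout and control was 0.26 ± 0.16 SE (limma adjusted p = 0.268). Egln2, for PHD1, had one of 0.03 with a 95% interval from -0.10 to 0.16, with the opposite sign in clone 4 alone. Hif1an, for the asparaginyl hydroxylase FIH, had one of -0.12 with an interval from -0.26 to 0.03.

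Ankrd37, an ankyrin repeat protein gene induced by HIF-1, had the largest difference of the 39 members between knockout and control. The 5 control tumors held 210.1, 450.1, 235, 728 and 417 normalized counts. The clone 4 tumors held 427, 541, 860.4, 1157 and 1317, and the clone 18 tumors held 1354, 1304, 901, 1224 and 1309. Every clone 18 tumor lay above every control tumor, while clone 4 tumors 6 and 7 lay below control tumor 4. The log2 difference was 1.40 ± 0.30 SE for knockout against control (2.64-fold, adjusted p = 0.0029), 1.10 ± 0.32 for clone 4 (adjusted p = 0.0265) and 1.71 ± 0.32 for clone 18 (adjusted p = 0.00103). Both clones are set against the same control tumors. No single tumor left out took the knockout call away (log2 difference 1.20 to 1.65), while the call in clone 4 was lost without tumor 1, 3, 8, 9 or 10 (adjusted p up to 0.0778). Both calls were lost without the 5 tumors with muscle transcripts (adjusted p = 0.0779 for the knockout and 0.287 for clone 4).

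Ankrd37 lies on the minus strand of chromosome 8 (GRCm38, chr8:45996902-46005707) and overlaps 2 genes on the other strand, Lrp2bp and Ufsp2. The strand setting of the read counting is not given in the sources used here, so reads of overlapping genes may not be separated. Lrp2bp was far lower, at 20.1 to 28.0 normalized counts in control and 26.0 to 122 in knockout tumors, and was also higher in the knockout (log2 difference 1.46 ± 0.32 SE, limma adjusted p = 0.00361). Ufsp2 had a difference of 0.06 (adjusted p = 0.595). Of the 22 other genes within 1 Mb of Ankrd37 whose mean was at least 10 normalized counts, 8 were higher and 4 lower in the knockout, with a median log2 difference of 0.23. Of all genes tested, 9.23% were higher and 12.9% lower. The same window held 5 higher and 6 lower of 18 genes around P4ha1 and 1 and 2 of 7 around Ndrg1. It held 2 and 5 of 47 around Pfkfb4 and 1 and 0 of 11 around Ldhb.

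P4ha1 encodes the catalytic subunit of a collagen prolyl hydroxylase and is a classic HIF target. Control tumors had 4663, 4458, 4380, 5803 and 4947 normalized counts of it. Clone 4 had 4777, 5825, 6172, 6867 and 7970, and clone 18 had 6544.5, 7620, 5131, 6173.5 and 6469. Only tumor 6 of clone 4 and tumor 13 of clone 18 fell inside the control range. The log2 difference was 0.38 ± 0.10 SE (1.30-fold, adjusted p = 0.0142). It was 0.37 in clone 4 (adjusted p = 0.048) and 0.39 in clone 18 (adjusted p = 0.0268), with a difference between the clones of 0.02 and a 95% interval from -0.24 to 0.28. Both clone calls lay near the threshold: with 1 tumor left out, clone 4 passed in 4 of 15 fits (adjusted p up to 0.115) and clone 18 in 10 of 15 (up to 0.0729). P4ha2, for the other form of that subunit, had a difference of -0.02 with an interval from -0.28 to 0.23, and its sign turned with quantile or median scaling.

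Ndrg1, a gene induced by hypoxia and cell stress, went the other way. Its normalized counts were 71192, 105937.5, 76078, 101622 and 86367 in control, 50398, 61425, 69234, 71294 and 91931 in clone 4 and 59772, 55501, 42753.5, 62935 and 74114 in clone 18. Of the 10 knockout tumors, 7 lay below the lowest control tumor, and tumors 9, 10 and 15 lay inside the control range. The log2 difference was -0.48 ± 0.15 SE (adjusted p = 0.0273), -0.59 ± 0.17 in clone 18 (adjusted p = 0.0155) and -0.37 ± 0.17 in clone 4 (adjusted p = 0.144). The call over all tumors was lost without control tumor 2, 4 or 5 (adjusted p up to 0.0881). On chromosome 15, where Ndrg1 stands, 24.1% of 588 genes whose mean was at least 10 were lower in the knockout. Over all genes tested the share was 12.9%.

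Bnip3, a mitophagy receptor, Adm, for the peptide hormone adrenomedullin, Pdk1, which inhibits pyruvate dehydrogenase, and Kdm3a, a histone demethylase, are also HIF targets, and none of these 4 passed in any comparison. Bnip3 ranged from 8872 to 20752 normalized counts within the control group and from 8806 to 34549 within clone 4. Its log2 difference of 0.37 carried an interval from -0.19 to 0.94. Adm ranged from 421 to 2000 in control, 211 to 2124 in clone 4 and 815.5 to 1634.5 in clone 18. For both genes the range within clone 4 was wider than any difference between group means. Pdk1 and Kdm3a had differences of 0.04 and 0.03.

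Car9 encodes carbonic anhydrase IX, a cell surface enzyme used as a hypoxia marker, and was low here. Control tumors had 72.0, 44.0, 70.5, 54.9 and 51.8 normalized counts. Clone 4 had 62.7, 56.4, 72.6, 64.9 and 109 and clone 18 had 84.7, 51.7, 94.2, 56.1 and 71.6. The groups overlapped, and the log2 difference of 0.29 had an interval from -0.13 to 0.70 (adjusted p = 0.334).

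The stretches upstream of the start sites of the 2 members that rose, of Ldhb, which fell, and of Ldha, which did not pass, are shown because HIF binds a short core, ACGTG or GCGTG, that can be looked for in them. They were read from RefSeq promoter windows (GRCm38.p6), 5′ to 3′ on the strand of the gene, from 170 bases before the start up to the first annotated exon. The stretch of Ankrd37 lies inside the gene position given above, so the start used for it is not the outermost annotated one. Capitals mark every ACGTG and GCGTG on either strand (on the other strand they read CACGT and CACGC). The 6 letters of CACGTG hold the core on both strands and count as 2 matches, and CACGCGTG holds 2 that overlap.
Ankrd37 (chr8:45999868-46000020, minus strand): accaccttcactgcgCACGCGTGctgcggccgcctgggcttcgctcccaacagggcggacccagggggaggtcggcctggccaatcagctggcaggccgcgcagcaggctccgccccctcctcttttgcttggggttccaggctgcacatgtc
P4ha1 (chr10:59323126-59323295, plus strand): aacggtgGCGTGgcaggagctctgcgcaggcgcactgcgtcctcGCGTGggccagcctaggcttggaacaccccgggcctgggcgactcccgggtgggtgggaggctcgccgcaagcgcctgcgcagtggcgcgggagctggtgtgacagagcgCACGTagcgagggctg
Ldhb (chr6:142507958-142508127, minus strand): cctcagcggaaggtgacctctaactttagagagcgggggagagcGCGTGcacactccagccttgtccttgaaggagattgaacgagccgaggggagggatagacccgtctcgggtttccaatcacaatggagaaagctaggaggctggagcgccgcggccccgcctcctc
Ldha (chr7:46845634-46845803, plus strand): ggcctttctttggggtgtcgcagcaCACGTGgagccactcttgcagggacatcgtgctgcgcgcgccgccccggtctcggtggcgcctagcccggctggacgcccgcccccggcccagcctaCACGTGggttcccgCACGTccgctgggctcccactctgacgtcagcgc
The printed stretches hold 2 matches in Ankrd37, 3 in P4ha1, 1 in Ldhb and 5 in Ldha. The printed genes, picked with their results known, thus all carried the core, whether they rose, fell or did not pass. Over the 250 bases before the start, Ankrd37 held 4, P4ha1 3 and Ldhb 1. Pfkfb4, which also fell and is not printed, held 1 there. Ldha has 2 start sites, with 5 and 1, and only the start with 5 is printed. The counts therefore depend on the start and the stretch shown. Over the full 250 bases before the start, 38.6% of the 32851 start sites in the table held at least 1 match, as did 41 of the 52 starts (78.8%) of the 36 members with an entry. Ndrg1, Epas1 and Slc2a3 had no entry. The members include genes chosen as established HIF targets, so these shares are a description and not a test. A match is a stretch of letters and not a bound site, and no binding was measured in these tumors.

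None of the 4 transporters passed in limma in any comparison, and between knockout and control 0 of them had an unadjusted p under 0.05. Slc2a1 encodes GLUT1, the main basal glucose transporter, and was at 3208, 6637, 3143, 8229 and 4846 normalized counts in control. It was at 2391, 3572, 4745, 5162 and 10234 in clone 4 and 5153.5, 5939, 3719, 4957 and 6575 in clone 18. The group means, 5212.5 ± 2212, 5221 ± 3004 and 5269 ± 1080 (SD, n = 5), lay far closer together than the tumors of any group. The log2 difference of 0.02 had an interval from -0.56 to 0.59, and its sign turned in clone 4 alone.

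Slc2a3, which encodes GLUT3, a high-affinity transporter, was at 659 ± 399 in control, 1167 ± 584 in clone 4 and 429 ± 125 in clone 18. Clone 18 minus clone 4 gave -1.36 on the log2 scale, with an interval from -2.23 to -0.48, which missed the threshold in limma (adjusted p = 0.0731) and passed it in DESeq2 on recovered reads. Slc16a1, for the lactate transporter MCT1, and Slc16a3, for the HIF-responsive MCT4, had differences between knockout and control of 0.11 (adjusted p = 0.507) and 0.32 (adjusted p = 0.549). Slc16a3 reached 1268 in tumor 10 against 187 to 482 in the other clone 4 tumors.

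In upper glycolysis, from glucose to triose phosphate, Pfkfb4 was the only member that passed between knockout and control. Pfkfb4 encodes 1 of the bifunctional enzymes that make and break fructose 2,6-bisphosphate, the activator of phosphofructokinase. Its normalized counts were 975, 803, 1112, 806 and 964 in control, 786, 713, 696, 718 and 728.5 in clone 4 and 782, 652, 637.5, 645.5 and 635 in clone 18. All 10 knockout tumors were below all 5 control tumors. It was the only member without overlap: 1 of 39 members lay lower without overlap (2.56%) against 4.87% of all genes, and 0 of 39 higher against 3.11%. The log2 difference was -0.41 ± 0.08 SE (0.754-fold, adjusted p = 0.00206), -0.35 in clone 4 (adjusted p = 0.0164) and -0.47 in clone 18 (adjusted p = 0.00152). These 3 calls held with any single tumor left out, and the clone 4 call was lost without the tumors with muscle transcripts (adjusted p = 0.0739). Pfkfb3, the isoform with the highest kinase activity, had a difference of 0.03 with an interval from -0.11 to 0.17.

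Pfkm encodes the muscle type of phosphofructokinase and was the only member that differed between the clones. Its normalized counts were 5374, 5796, 5104, 5310 and 4868 in control, 3849, 4241, 4197, 4029 and 4030 in clone 4 and 5199, 4704, 4919, 4833 and 5729 in clone 18. All 5 clone 4 tumors were below every other tumor, and clone 18 overlapped the control. The log2 difference was -0.38 ± 0.06 SE for clone 4 against control (adjusted p = 0.000418), -0.06 ± 0.06 for clone 18 (adjusted p = 0.528) and 0.32 ± 0.06 for clone 18 against clone 4 (adjusted p = 0.00588). Between the clones, 2.56% of members were higher in clone 18 and 0.0% lower, against 2.49% and 2.13% of all genes. At an unadjusted p under 0.05 in limma, 2 members were lower in clone 18, and DESeq2 called 1 of them, Slc2a3.

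The genes around Pfkm were examined after its result was seen. Of the 39 other genes within 1 Mb on chromosome 15 whose mean was at least 10, 24 were lower and 1 higher in clone 4 than in control, with a median log2 difference of -0.35. In clone 18 against control these neighbors had a median of -0.0036, with 4 higher and 6 lower, and 17 of them were higher in clone 18 than in clone 4. Over the 588 such genes of the chromosome, 23.6% were lower in clone 4, against 10.0% of all genes tested, and 20.7% were lower in clone 18. Of all genes tested, 10.4% were higher and 14.2% lower in clone 18 than in control. Between the clones, 2.49% of them were higher in clone 18. Senp1 overlaps Pfkm on the other strand and had a difference of -0.41 ± 0.06 SE in clone 4 (adjusted p = 0.000135).

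Another 8 enzymes of upper glycolysis did not pass in any comparison: the hexokinases Hk1 and Hk2, the isomerase Gpi1, the phosphofructokinases Pfkl and Pfkp, the aldolases Aldoa and Aldoc and the triose phosphate isomerase Tpi1. Their differences between knockout and control ran from -0.05 for Aldoa to 0.27 for Pfkl. Pfkl, the liver type, was at 9696 ± 1871 in control, 11928 ± 3263 in clone 4 and 11539 ± 1813 in clone 18 (knockout against control, adjusted p = 0.223). Aldoc was at 5306 ± 1030, 5810 ± 1366 and 6759 ± 757, with a log2 difference in clone 18 of 0.36 ± 0.15 SE (adjusted p = 0.0974).

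None of the 6 enzymes of lower glycolysis passed in limma in any comparison, 0 of them had an unadjusted p under 0.05 between knockout and control, and their differences between knockout and control ran from -0.14 for Pgk1, phosphoglycerate kinase, to 0.22 for Eno2. Gapdh was at 44104 ± 10214 normalized counts in control, 47693 ± 15878 in clone 4 and 47587 ± 2275 in clone 18 (SD, n = 5). Pkm, for pyruvate kinase M, was at 120450 ± 14658, 128382 ± 27495 and 138217 ± 16520. Eno2, the enolase known from neurons and an HIF target, ran from 1785 to 5339 within the control group alone. Gapdh, Tpi1, Ldha, Pkm, Pgk1, Aldoa, Eno1 and Pgam1 have pseudogenes or near-identical copies, and how shared reads were counted is not given, so their levels are uncertain.

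Ldha encodes the lactate dehydrogenase subunit that favors lactate formation. It was at 50541.5, 66047, 50404, 69171 and 63331 normalized counts in control. Clone 4 held 40825, 53330, 62532, 77692 and 90803, and clone 18 held 63107, 69745, 49819, 58780 and 68548. The groups overlapped, and the log2 difference of 0.06 had an interval from -0.25 to 0.38, with the sign turned by quantile scaling.

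Ldhb encodes the subunit that favors lactate use. Its normalized counts were 294, 176, 309.7, 161 and 238 in control, 134, 213, 112, 206 and 161.5 in clone 4 and 167, 89.8, 170.2, 149 and 161 in clone 18. Control tumors 2 and 4 lay inside the knockout range, and the other 3 control tumors lay above every knockout tumor. The log2 difference was -0.58 ± 0.20 SE (0.668-fold, adjusted p = 0.0462), -0.66 in clone 18 (adjusted p = 0.0478) and -0.50 in clone 4 (adjusted p = 0.16). The knockout call held in 5 of 15 fits with 1 tumor left out (adjusted p up to 0.144) and in 7 of 12 other settings. It was lost without tumor 1, 3, 5, 6, 8, 10, 11, 12, 14 or 15, and the clone 18 call also held in 5 of 15 fits (adjusted p up to 0.125).

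By clone, 2 of 39 members (5.13%) were higher in clone 4 than in control, against 6.79% of all genes, and 2 (5.13%) were lower, against 10.0%. In clone 18, 3 (7.69%) were higher, against 10.4%, and 4 (10.3%) were lower, against 14.2%. Clone 4 passed for Ankrd37 and P4ha1, higher, and for Pfkm and Pfkfb4, lower. Clone 18 passed for Egln3, Ankrd37 and P4ha1, higher, and for Hif1a, Ndrg1, Pfkfb4 and Ldhb, lower. Every one of these shares was below that of all genes.

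**Figure D2:**
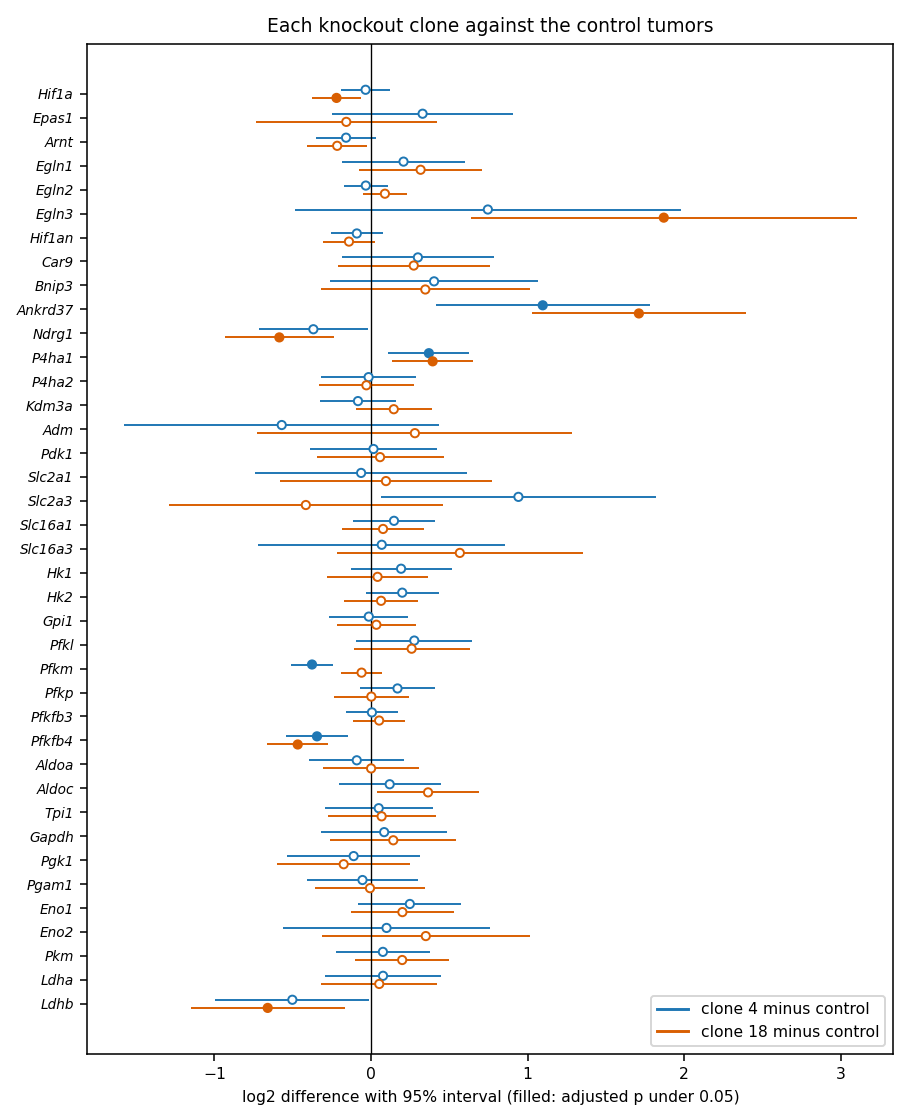
Log2 difference from the control tumors (x axis) of the 39 members (y axis, ordered by role) in clone 4 and clone 18, with 95% intervals from limma. Filled points passed the test at an adjusted p under 0.05. Egln3, Adm and Slc2a3 have the widest intervals. The intervals of Ankrd37 and P4ha1 lie above 0 and those of Ndrg1, Pfkfb4 and Ldhb below 0 in both clones.

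The tumors of 1 group differed from each other in these genes. In the control group, tumor 4 was the highest of the 5 for 20 of the 39 members and tumor 2 for 13, while tumor 3 was the lowest for 18 and tumor 1 for 11. In clone 4, tumor 10 was the highest for 30 members and tumor 6 the lowest for 29. In clone 18, tumor 13 was the lowest for 29 and tumor 15 the highest for 19. Relative to the control mean, the median log2 value of the members ran from -0.24 to 0.24 over the control tumors, from -0.34 to 0.52 over clone 4 and from -0.15 to 0.20 over clone 18. The median of all genes whose mean was at least 10 stayed between -0.03 and 0.02.

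The spread within groups was wider for the members than for most genes in the control and clone 4 groups. The median SD of log2(normalized count + 1) over 5 tumors was 0.25 for the members in control, against 0.17 for 16494 genes whose mean was at least 10. It was 0.36 against 0.18 in clone 4 and 0.20 against 0.19 in clone 18. Egln3, Slc2a3, Adm, Ankrd37 and Eno2 varied the most among control tumors. Hif1a, Egln2, Hif1an, P4ha1, Slc16a1, Pfkm and Pfkfb3 were the 7 members below the median of all genes there. Pfkfb4, Ldhb, Car9, Epas1 and Egln2 went the other way in the control group. Tumors 1 and 3, low for most members, were the highest there for each of these genes.

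**Figure D3:**
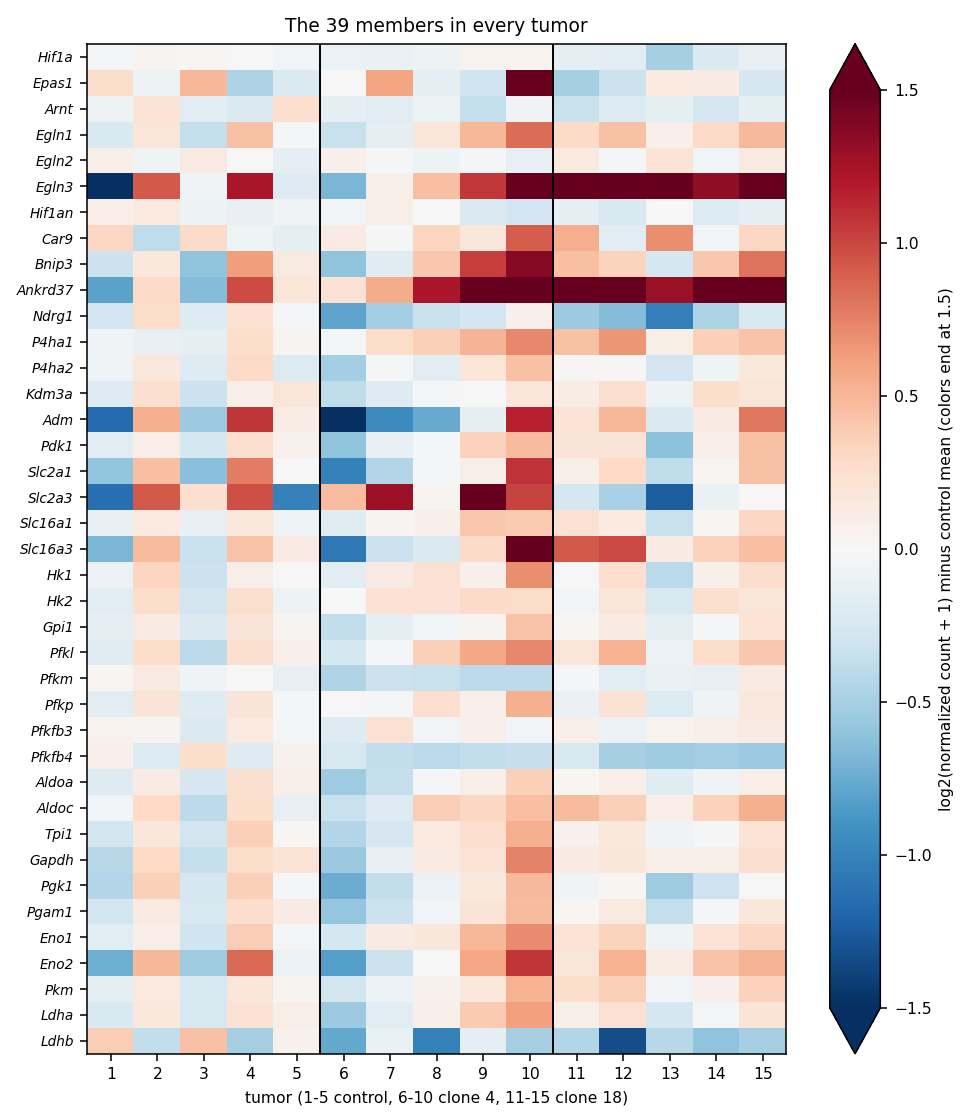
Log2(normalized count + 1) of the 39 members (rows, ordered by role) in each of the 15 tumors (columns), relative to the mean of the 5 control tumors; colors end at 1.5 in either direction. Tumors 2, 4, 9, 10 and 15 have 29 to 33 members above the control mean and tumors 1, 3, 6, 7 and 13 have 6 to 13. Ankrd37 is above it and Pfkfb4, Ldhb and Arnt are below it in all 10 knockout tumors.

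Markers of other cell types are set beside these tumor differences. S100a9, a neutrophil gene, was at 458, 800.1 and 903 normalized counts in tumors 2, 4 and 10 and at 82.0 to 198 in the other 12. Those 3 tumors were each the highest or next highest of their group for most members. The summed fibroblast markers were highest in tumor 10 (193039) and lowest in tumor 6 (19409), but in the control group they were higher in tumor 3 (88494.5), low for most members, than in tumor 4 (59852), high for most. Acta1, skeletal muscle actin, was at 273 to 720.5 in tumors 9, 10, 11, 14 and 15 and at 0 to 39.5 in the other 10. In the control tumors 2 and 4, high for most members, it was at 6.20 and 6.70. The sum of all muscle markers, however, was highest of the control group in those tumors, at 646.7 and 608.4. It was 360.9, 318.0 and 206.2 in tumors 1, 3 and 5. The summed muscle markers ranged over 206 to 647 in control, 124 to 1711 in clone 4 and 204 to 2456 in clone 18.

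Without the 5 tumors with muscle transcripts, a choice made after the data were seen, neither Ankrd37 (log2 difference 1.02) nor P4ha1 (0.27, adjusted p = 0.148) passed between knockout and control. Ndrg1, Pfkfb4 and Pfkm were lower in that limma fit of 5 knockout and 5 control tumors, and 0 of 39 members were higher (2 at an unadjusted p under 0.05). Ankrd37 still passed in clone 18, on 2 tumors. Between the clones 0 members passed (4 higher and 2 lower at an unadjusted p under 0.05, Pfkm adjusted p = 0.19). Of the tumors left out, 9, 10 and 15 were in the top 2 of their group for 30, 33 and 30 of the 39 members. Tumors 11 and 14 were so for 14 and 6. The fit thus also drops tumors high for the members, and it cannot tell that apart from muscle. Over all genes 3073 passed between knockout and control, against 4040 with all tumors. Whether muscle, neutrophils or fibroblasts had a part in the results was not tested further.

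Of the other marker lists, 6 of 8 macrophage genes (75.0%) were lower in the knockout tumors, against 12.9% of all genes (sums of 84307 to 111212 in control, 66281 to 82199 in clone 4 and 59967 to 79956 in clone 18). Of the T cell genes 3 of 8 (37.5%) were lower, of the neutrophil genes 2 of 7 (28.6%), and of the adipocyte genes 1 of 5 (20%). Of the red cell genes 1 of 7 (14.3%) was higher, against 9.23% of all genes. The renal epithelial list had 1 gene (11.1%) higher and 1 (11.1%) lower of 9. Between knockout and control limma called 0 of 14 skeletal muscle genes (3 higher and 1 lower at an unadjusted p under 0.05), while edgeR called 4 and DESeq2 6 of them higher. It called 0 of 10 endothelial genes, where edgeR and DESeq2 called 1 higher. Of 8 fibroblast, 8 proliferation and 2 measured keratinocyte genes, 0 passed in limma or DESeq2 and 0 had an unadjusted p under 0.05. In clone 18 alone, Ckm of the muscle list, Esam of the endothelial list and Cd68 of the macrophage list were higher than in control, while the other 7 macrophage genes were lower. The keratinocyte sum was at most 18.0 in any tumor. A neutrophil gene was at 0 in all clone 18 tumors and a keratinocyte gene in all tumors of control and of clone 4, and no other marker was at 0 in a whole group.

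Per kilobase of annotated exon, which allows genes to be compared, the most abundant members in the control tumors were Pkm at 24090 ± 2931 normalized counts per kb (SD, n = 5), Tpi1 at 21360 ± 4183 and Ldha at 18100 ± 2674. Egln3, at 18.04 ± 12.15, and Car9, at 25.45 ± 5.29, were at the bottom of the 38 members with a length (Aldoa was left out because 2 annotated genes bear its name). Pkm and Tpi1, Tpi1 and Ldha, and Pgam1 and Gapdh are among the neighbors in this order that do not differ beyond their spread.

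Shares of a step were first taken over the members alone. Ldha made up 99.1% ± 0.364 of the lactate dehydrogenase level per kb in control, 99.4% ± 0.200 in clone 4 and 99.5% ± 0.160 in clone 18 (SD, n = 5). Hif1a made up 97.7% ± 0.592, 96.8% ± 1.68 and 97.6% ± 0.715 of the HIF alpha level. Eno1 held 89.7% ± 2.74, 90.7% ± 2.25 and 89.0% ± 0.663 against Eno2. These 3 steps had the same leading member in all 15 tumors. Slc2a1 held 94.3% ± 2.625 in control, 88.9% ± 5.43 in clone 4 and 96.2% ± 0.758 in clone 18 against Slc2a3. With the other measured isoforms of the further list counted in, a choice made after the data were seen, Eno1 held 55.6% ± 1.535 in control, beside Eno1b at 24.7% and Eno3 at 13.3%, and 60.1% and 61.0% in the clones. Slc2a1 held 71.7% ± 8.18 in control with Slc2a2, Slc2a4, Slc2a6 and Slc2a8 included, and 71.7% and 78.8% in the clones. Ldha held 99.1% in control with Ldhc. Eno1b is a near-identical copy of Eno1, so the split of reads between them is uncertain.

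Phosphofructokinase was split among its 3 isoforms, all members. In control, Pfkm held 40.25% ± 3.67 of the level per kb, Pfkl 36.4% ± 3.39 and Pfkp 23.35% ± 0.688. In clone 4 these shares were 30.65% ± 4.68, 43.5% ± 5.63 and 25.9% ± 2.20, and in clone 18 they were 36.6% ± 3.63, 41.2% ± 3.03 and 22.2% ± 0.853. With the length of the longest transcript in place of all exons, Pfkm held 31.6% in control and Pfkl 44.0%, so their order depends on the length used. The same is true of Hk2, which held 60.6% ± 1.62 against Hk1 by exon length and 45.5% by transcript length in control. With Hk3 and Hkdc1 counted in, Hk2 held 54.2% ± 2.598 by exon length. The shares are descriptions and were not tested.

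**Figure D4:**
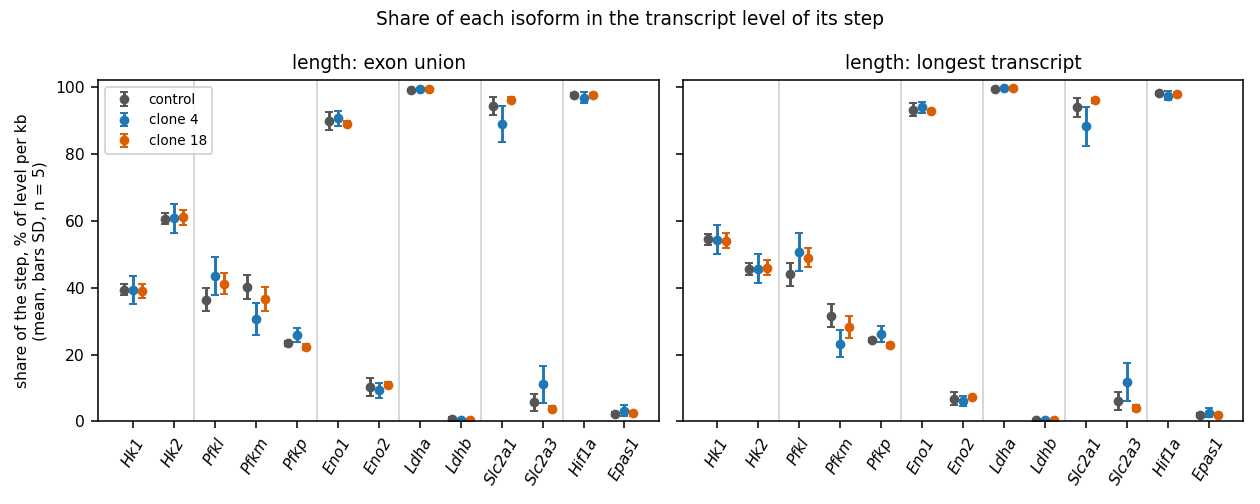
Share of each member in the summed transcript level per kb of the members of its step (y axis, %), for 6 steps (x axis), without the other isoforms such as Eno1b, Eno3 and Slc2a6, by the length of all exons (left) and of the longest transcript (right). Points are means and bars SD of the 5 tumors of each group. Ldha, Hif1a, Slc2a1 and Eno1 lead their steps under both lengths, while the order of Hk1 and Hk2 and of Pfkl and Pfkm in control turns with the length.

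A further 5 lists give the surroundings of the pathway, and each count is to be read beside the 9.23% of all genes that were higher and the 12.9% that were lower in the knockout. Of 10 measured genes for HIF degradation and dimer partners, 0 were higher and 2 (20%) lower in the knockout, Cul2 (-0.25 ± 0.07 SE, adjusted p = 0.025) and Rbx1 (-0.20 ± 0.06, adjusted p = 0.0345), both part of the ubiquitin ligase that contains VHL. By clone, Cul2 passed in clone 18 and not in clone 4 (limma adjusted p = 0.172). Rbx1 passed in clone 4 and not in clone 18 (limma adjusted p = 0.0989). Vhl itself, at 3587 normalized counts in control and 4207 in the knockout, did not pass (limma adjusted p = 0.122). The median difference of that list was -0.05, beside -0.02 for all genes. Of 36 further HIF targets, 2 (5.56%) were higher and 3 (8.33%) lower, with a median of 0.07. Car12, a membrane carbonic anhydrase, was at 3366 ± 602 normalized counts in control, 5021 ± 1384 in clone 4 and 5117 ± 1048 in clone 18 (0.58 ± 0.15 SE, adjusted p = 0.0099). Ddit4, an inhibitor of mTORC1 signaling, rose by 0.33 (adjusted p = 0.0224). Both of these calls were lost without the muscle tumors (Car12 0.34, adjusted p = 0.112, and Ddit4 0.25, adjusted p = 0.175), which left 0 higher and 4 lower of the list. Ppfia4 fell by 0.78 (adjusted p = 0.0327) and Rora, a nuclear receptor, fell by 0.27 (adjusted p = 0.0295). The third gene that fell was Plod1.

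Of 19 measured other isoforms of the glycolytic steps, 1 (5.26%) was higher and 4 (21.1%) were lower in the knockout, with a median difference of -0.05. Eno3, the muscle enolase, was at 2456, 2136, 2787, 2239 and 1971 normalized counts in control. It was at 1349, 1359, 1192, 1277 and 1253 in clone 4 and 783, 778, 881, 717 and 913.5 in clone 18. No group overlapped another, and clone 18 minus clone 4 gave -0.66 ± 0.09 SE (adjusted p = 0.000229). Pklr, the liver and red cell pyruvate kinase, was at 3713 ± 532 in control, 2933 ± 382 in clone 4 and 1171 ± 232 in clone 18 (clone difference -1.34 ± 0.12, adjusted p = 4.26e-06). Slc2a6, a sugar transporter of the GLUT family, fell by 1.30 on the log2 scale (adjusted p = 3.34e-05), and Bpgm, for bisphosphoglycerate mutase, rose by 0.46 (adjusted p = 0.000123). The fourth lower gene was Ldhc, at 0.90 to 5.60 normalized counts in control and 0 to 1.00 in the knockout, too few for a fold. Eno3 is given tumor by tumor by a choice made after its values were seen.

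Of 12 genes for the entry of pyruvate into mitochondria, 0 were higher and 5 (41.7%) lower in the knockout, with a median difference of -0.16. Mpc1, a subunit of the mitochondrial pyruvate carrier, was at 5198 ± 605 in control, 3013 ± 364 in clone 4 and 3349 ± 271 in clone 18 (-0.71 ± 0.08 SE, adjusted p = 1.23e-05). Dld, a subunit of the pyruvate dehydrogenase complex, fell by 0.33 (adjusted p = 0.00151), Pcx, pyruvate carboxylase, fell by 0.36 (adjusted p = 0.00989) and Pdhb, another subunit of the complex, fell by 0.16 (adjusted p = 0.0365). The fifth was Pdhx. Mpc2, the partner of Mpc1 in the carrier, did not pass in the knockout (0.25, adjusted p = 0.0874) and was higher in clone 18 than in clone 4 (0.33, adjusted p = 0.0424). It is named after its values were seen.

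Of 13 genes of the pentose phosphate path and gluconeogenesis, 0 were higher and 2 (15.4%) lower, with a median of -0.14. They were Pck2, the mitochondrial form of PEP carboxykinase (-0.44 ± 0.10 SE, adjusted p = 0.00468), and Pgd, of the oxidative pentose phosphate path (-0.22 ± 0.06, adjusted p = 0.0133). Across the 5 lists, DESeq2 called 2, 6, 7, 5 and 3 genes in the order given here and edgeR 1, 4, 4, 3 and 2, and in limma without the muscle tumors 1, 4, 4, 3 and 0 passed. In that fit Cul2, Slc2a6, Eno3, Bpgm, Mpc1, Dld and Pdhb still passed, and the other 9 genes named by the rule did not (adjusted p from 0.0517 to 0.175). Where 0 genes of a list were higher, at most 1 was higher at an unadjusted p under 0.05. The macrophage and T cell markers given above were lower in the same tumors, and their part in these lists was not tested.

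**Figure D5:**
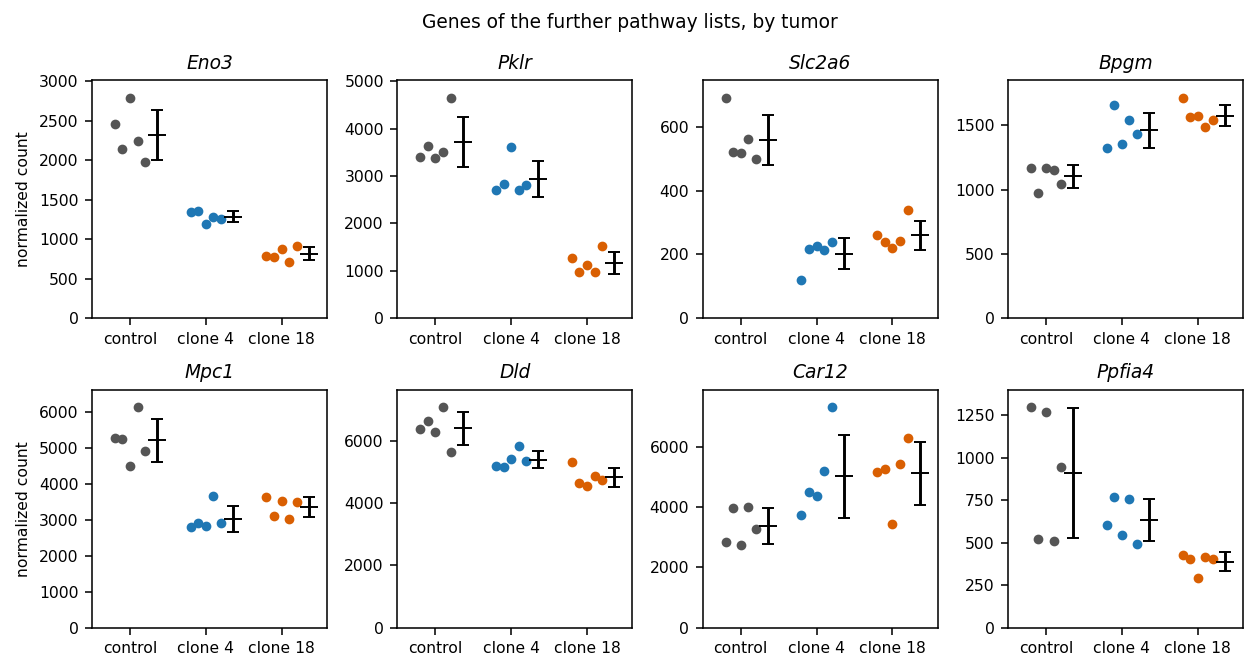
Normalized count (y axis, from 0) of 8 genes of the further lists in the control, clone 4 and clone 18 tumors (x axis); each point is 1 tumor, and the black mark is the mean with SD (n = 5). Eno3 separates all 3 groups, Pklr is lowest in clone 18, and Mpc1 and Slc2a6 lie below the 5 control tumors in all 10 knockout tumors.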

How the data were processed

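RNA-seq was deposited for 15 tumors as 1 table. The authors aligned reads with TopHat2 to mm10, counted them per gene with HTSeq and normalized them with DESeq. Versions, annotation and strand setting are not given in the sources used here. The deposited values are a signal, the read count of a gene divided by the tumor's size factor. Dividing by the value of a single read, found separately for the 15 tumors, recovered whole reads: values up to 8000 came out whole within 0.05 for 99.718% or more of the genes.

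Genes at 0 in all tumors (29) were left out. Differences were tested on log2(value + 1) with limma (version 3.58.1, mean-variance trend, two-sided, R 4.3.3), Benjamini-Hochberg adjusted over 18250 genes at a threshold of 0.05. Knockout against control used 2 groups, and the clone contrasts used 3. On recovered reads, edgeR 4.0.16 called 3997 of 16687 genes and DESeq2 1.42.0 called 4586 between knockout and control, against 4040 in limma. Other scalings, pseudocounts, filters, two-sample tests and left-out tumors were tried as alternatives.

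Sets and lists were chosen with earlier results of these data known, and so were the tests. Members were to be given tumor by tumor if they passed at an absolute log2 difference of at least 0.5 between knockout and control or between the clones, together with Hif1a, Epas1, Car9, Slc2a1 and Ldha. Each further list was to name at most 4 genes that passed, with the largest differences and a mean of at least 10. Any other gene described tumor by tumor or named from a list was chosen after its values were seen. The further lists were HIF degradation and dimer partners, further HIF targets, other isoforms of the glycolytic steps, pyruvate entry into mitochondria, and the pentose phosphate path with gluconeogenesis. Marker lists were skeletal muscle, endothelial, red cell, macrophage, neutrophil, T cell, fibroblast, keratinocyte, adipocyte, renal epithelial and proliferation. Gene positions and exon lengths came from GENCODE M21 (GRCm38), and 38 of 39 members had a length. The labels do not say whether tumors of a group grew in separate experiments, so p-values measure only the spread between these tumors.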

Additional observations from a re-analysis of the deposited data

Results flagged for a closer look

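In 6 of 117 groups of 5 tumors, 1 tumor stood apart from the other 4 by Dixon's test, and chance alone gives about 1 in 20, or 5.85 of 117. In clone 4, tumor 10 had 269.6 normalized counts of Egln3, for the prolyl hydroxylase PHD3, against 23.1 to 79.6 in the other tumors. The same tumor had 1267.7 of Slc16a3, for the lactate exporter MCT4, against 187.1 to 482.4. Tumor 6 of that clone had 8227.6 of Hk2, hexokinase 2, against 9605.7 to 10084.2. In clone 18, tumor 13 had 900.6 of Ankrd37 against 1223.9 to 1354.2, tumor 11 had 781.7 of Pfkfb4 against 634.8 to 652.1, and tumor 12 had 89.8 of Ldhb against 149.4 to 170.2.

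The level of Pfkm, the muscle phosphofructokinase, differed between the clones: clone 18 minus clone 4 was 0.3164 on the log2 scale (limma, adjusted p = 0.00588), and all 5 clone 18 tumors were above all 5 clone 4 tumors. The call was lost without the tumors with muscle transcripts (adjusted p = 0.19). In that fit 278 genes of all passed, against 844 with all tumors. The 2 clone 18 tumors left, at 4704 and 4919 normalized counts, still lay above the clone 4 tumors left, at 3849 to 4241. The call of clone 4 against control held in all 15 fits that left out 1 tumor and in all 10 other settings. Of the 39 other genes within 1 Mb of Pfkm, 24 were lower in clone 4 than in control (median log2 difference -0.35), against 10.0% of all genes tested. Among the 24 was Senp1 (-0.41), which overlaps Pfkm. Loss of Pbrm1 and other differences between the clones cannot be told apart.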

How the results depend on the processing

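Between knockout and control, the 5 members that passed kept their direction in all 145 alternatives and the call in 122 of them. The other 34 members kept direction and side of the threshold in 917 of 986, passed in 8 and turned in sign in 61. The number of members that passed was 5, and 3 with a two-sample test of equal variances, 3 without the tumors with muscle transcripts (a choice made after seeing the data), and 3 to 5 with 1 tumor left out (3 without control tumor 5). For clone 4 the number was 4, and 2 without the limma trend, 2 without the muscle tumors, and 2 to 4 with 1 tumor left out (2 without tumor 1, 3, 8, 9 or 10). For clone 18 it was 7, and 4 without the muscle tumors, which left 2 tumors, and 3 to 7 with 1 tumor left out (3 without tumor 1, 4 without tumor 3, 5, 11 or 12). Between the clones it was 1, and 2 with DESeq2, 0 without the muscle tumors (limma, where 278 genes of all passed), and 1 to 2 with 1 tumor left out (2 without tumor 8, where Slc2a3 passed). The count of members with no overlap was 1, and 3 without the muscle tumors. Those signs that turned, as log2 differences of knockout against control: without the muscle tumors Bnip3 -0.063, Kdm3a -0.084, Pdk1 -0.23, Slc2a1 -0.32, Slc16a1 -0.050, Slc16a3 -0.10, Gpi1 -0.11, Pfkfb3 -0.010, Tpi1 -0.087, Gapdh -0.055, Eno2 -0.10, Ldha -0.13; in clone 4 alone Egln2 -0.034, Kdm3a -0.084, Slc2a1 -0.064, Gpi1 -0.015; in clone 18 alone Epas1 -0.16, Adm 0.28, Slc2a3 -0.42, Aldoa 0.00016; with quantile scaling P4ha2 0.015, Pgam1 0.015, Ldha -0.026; with median centring P4ha2 0.0016. With 1 tumor left out they ran for Epas1 -0.071 to 0.21, Egln2 -0.0070 to 0.060, P4ha2 -0.075 to 0.048, Kdm3a -0.049 to 0.091, Adm -0.44 to 0.12, Pdk1 -0.030 to 0.11, Slc2a1 -0.14 to 0.21, Slc2a3 -0.020 to 0.51, Gpi1 -0.044 to 0.057, Pfkfb3 -0.026 to 0.064, Aldoa -0.11 to 0.015, Tpi1 -0.012 to 0.15, Pgam1 -0.10 to 0.036. By the longest transcript, over all 15 tumors, the share of Hk2 was 45.7% (60.75% by all exons), of Pfkl 47.9% (40.4%), of Pfkm 27.7% (35.8%) and of Eno1 93.3% (89.8%). With the other measured isoforms counted in, chosen after seeing the data, the share was 54.0% for Hk2, 58.9% for Eno1 and 74.1% for Slc2a1 (93.2% over the members). The causes were not tested, and the muscle tumors include tumors 9, 10 and 15, which were high for most members. Each scaling moved the median of all genes by less than 0.1. With 5 tumors a group, intervals of members such as Egln3, Adm and Slc2a3 are wide. No paired analysis was possible because no number in the labels links tumors of different groups.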
